A study of Capra hircus with 4 samples.

Results

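Actins and alpha-actinins of goat longissimus muscle were examined in RNA-seq libraries of ractopamine-treated and untreated goats. The list held 9 genes (ACTA1, ACTA2, ACTC1, ACTB, ACTG1 and ACTN1 to ACTN4), and members were the unigenes, that is, the sequences assembled from the reads, which the deposited pairing table assigns to 1 of these gene names by protein match. The rule found 20 of 59774 unigenes, under 7 of the 9 names. No unigene carried the names ACTC1 or ACTG1.

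There was 1 control library and 3 treated libraries, numbered 1 to 3. The goats were Cashmere Goats, the tissue was Longissimus dorsi muscle and the age was 2 months in both groups. In the experiment the treated group received ractopamine, a β-agonist feed additive, by mouth at 1 mg/kg body weight over 28 dosing days, with 21 withdrawal days after them, and the control group was not dosed. The labels number the treated libraries and give neither a sampling day nor an animal. Alone they do not show how much of the dosing and withdrawal each library had passed through. Unigenes with counts above 0 numbered 39256, 11275 and 30808 in treated libraries 1 to 3. The study prints these same numbers, in this order, as genes differing from control on a dosing day, an early withdrawal day and the last withdrawal day. The treated libraries are therefore probably from these different days, although no label says so. The study describes sequencing on several days of both periods. Each library is therefore described on its own. Every SD over the treated libraries and every edgeR result below probably holds differences of day, and may hold those of animal.

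Actin polymerises into the thin filament, along which myosin pulls. Skeletal muscle uses ACTA1, heart muscle mainly ACTC1 and smooth muscle ACTA2, whereas ACTB and ACTG1 form the cytoskeleton of most cells. Alpha-actinins crosslink actin filaments. ACTN2 and ACTN3 hold thin filaments in the Z-disc, ACTN3 only in fast fibres, and ACTN1 and ACTN4 are the non-muscle forms found at adhesions and stress fibres.

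The gene names needed a check first, because the actins are nearly identical and the alpha-actinins are alike. The deposited annotation also gives the best nucleotide match of each unigene, and it went with the gene of the protein-based table in 10 of 20 members. In 8 it named another gene, in 1 it matched no vertebrate actin, and in 1, c13011_g1, it named no isoform and the deposited Swiss-Prot match gave another gene. The most abundant actin unigene, c10526_g1, encodes a whole actin of 377 residues. The table gives it to ACTA2 at 98% protein identity, and its nucleotide match is skeletal ACTA1. The only unigene named ACTA1 in the table, c9738_g1, matches cardiac ACTC1. The first 60 coding bases of the muscle actins are shown because they separate the genes. Capitals mark bases that differ from c10526_g1.
c10526_g1 (table ACTA2, nucleotide match ACTA1): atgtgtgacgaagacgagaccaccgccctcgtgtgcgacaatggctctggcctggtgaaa
c9738_g1 (table ACTA1, nucleotide match ACTC1): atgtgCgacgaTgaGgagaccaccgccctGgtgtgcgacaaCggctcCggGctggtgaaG
c11062_g1 (table ACTA2, nucleotide match ACTA2): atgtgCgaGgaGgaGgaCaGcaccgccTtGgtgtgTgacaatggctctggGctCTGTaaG
The second sequence differed from the first at 8 bases and 2 residues, and the third at 15 bases and 5 residues.

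The same held for the actinins. The table gives 3 unigenes to ACTN3, and their nucleotide matches are ACTN3 (c13052_g1, with all 902 residues), ACTN2 (c11967_g3) and ACTN1 (c2056_g1).

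The cytoplasmic pair was affected as well. Both larger unigenes named ACTB in the table (c13011_g1 and c4305_g1) are given as ACTG1 here. The match of c4305_g1 is named gamma 1, that of c13011_g1 is a sheep actin with no isoform name, taken as ACTG1 from its deposited Swiss-Prot match, and the table calls the goat protein behind both cytoplasmic actin 2, the product of ACTG1. The third, c25498_g1, matched no vertebrate actin and had 0, 2, 0 and 0 counts. Both names are therefore given below, and "by nucleotide match" marks the second, c13011_g1 included. Near-identical actins can share reads. The longest identical run between a member and an actin or actinin unigene of another gene was 24 bases, and only c12352_g4 and c12352_g5, both ACTN4 by nucleotide match, shared stretches of 50 bases. This compares the assembled unigenes only, and it cannot show whether the transcripts share longer stretches or reads. How the authors' counting placed reads with mismatches was not tested.

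The libraries differed in composition. They held 6675218 to 8533046 counts, of which mitochondrial unigenes took 23.3% in the control library, then 41.1%, 89.4% and 54.4% in treated libraries 1 to 3. Levels are therefore given as counts per 1000000 remaining counts (CPM), where the remaining counts are those outside mitochondrial, ribosomal and bacterial unigenes. The remaining counts numbered 6416036 for the control library, then 4350468, 175790 and 2852481 for treated libraries 1 to 3, so that 3 counts, the limit below which a unigene at 0 was not detectable, corresponded to 17.1 CPM in treated library 2 and at most 1.05 in the others. The x-fold is the level in a treated library over that in the control library, each plus 0.1 CPM, and limits of 3 and 0.6 were used. The median x-fold of 8955 goat genes was 0.740, 0.530 and 0.729 in treated libraries 1 to 3, and 0.540, 0.0301 and 0.423 with levels scaled to all counts. Intervals are 95% and cover counting error only, and with 1 control library an x-fold has no replicate check on the control side. The tissue label was met by the skeletal muscle markers, whose summed level was 53623 to 105220 CPM over the libraries (6 of 10 markers in the table, none at 0). Most of this sum was CKM, with 48421 CPM in the control library, then 33452, 51726 and 77635 in treated libraries 1 to 3. The only heart marker in the table, TNNT2, had 1, 1, 5 and 0 counts, or 0.156, 0.230, 28.4 and 0 CPM, with the highest level in treated library 2.

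Skeletal actin dominated. c10526_g1 was counted 238146 times in the control library against 98655, 4245 and 149433 times in treated libraries 1 to 3, which is 37117, 22677, 24148 and 52387 CPM. Treated libraries 1 and 2 lay below the control library and treated library 3 above it, with x-folds of 0.611 (0.606 to 0.616), 0.651 (0.631 to 0.671) and 1.41 (1.40 to 1.42). None of these passed a limit. Scaled to all counts, the x-folds of this unigene were 0.444, 0.0207 and 0.802, all below 1. Its share of the actin member counts was 99.7% (exact binomial interval 99.66 to 99.71%) in the control library, then 99.5% (99.49 to 99.57%), 99.3% (99.00 to 99.53%) and 99.5% (99.51 to 99.58%) across treated libraries 1 to 3. The share was thus slightly lower in every treated library, by more than counting error.

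**Figure D1:**
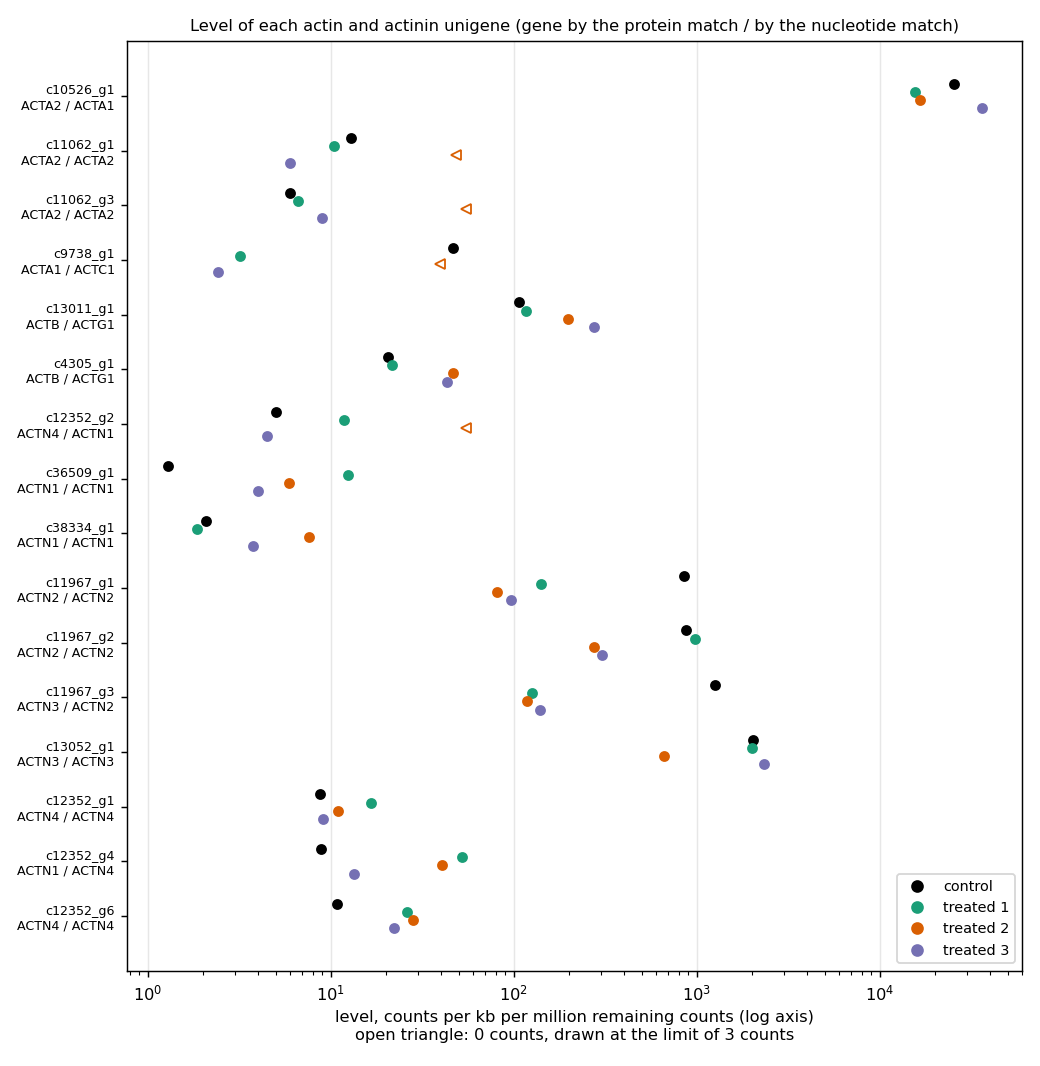
Level of the 16 member unigenes with a mean of at least 1 CPM, in CPM per kb of unigene on a log axis. Each point is 1 library and open triangles mark 0 counts at the limit of 3 counts. Skeletal actin (c10526_g1) lies at 15639 to 36129, above every other unigene, and the ACTN2 unigenes c11967_g1 and c11967_g3 have a control point well above their treated points.

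Cardiac actin was low in all libraries, and its first stretch was lower still in treated libraries 1 and 3. c9738_g1, which covers its first 119 residues, had 130 control counts (20.3 CPM), against 6, 0 and 3 in treated libraries 1 to 3. The x-fold was 0.0726 (0.0245 to 0.152) in treated library 1 and 0.0566 (0.0106 to 0.155) in treated library 3. In treated library 2 it had 0 counts, and the control level was 1.19 times the level of 3 counts in that library. The exact interval of the ratio reached up to 1.05, so a difference was not detectable there. By its x-fold alone it is the 1 member gene of the table, of 7 tested, that lay below 0.6 in all 3 treated libraries, where 20.1% of goat genes did, but with 0 counts in treated library 2 its place below the limit there is not shown.

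The next stretch of the same actin behaved otherwise in 1 library. c9738_g2 (residues 115 to 357), no member because the table gives it to ACTG2, had 290, 60, 10 and 13 counts, or 45.2, 13.8, 56.9 and 4.56 CPM. Its x-folds were 0.307 (0.227 to 0.404), 1.26 (0.597 to 2.35) and 0.103 (0.0530 to 0.175), so treated libraries 1 and 3 lay below the control library and treated library 2 did not. Both unigenes put ACTC1 far below skeletal actin. The ACTC1 count of c9738_g1 was 0.0546% of that of c10526_g1 in the control library, against 0.00608%, 0 and 0.00201% in treated libraries 1 to 3. The 0 of 4275 actin counts in treated library 2 allows a share of up to 0.0702% by the limit of 3 counts (exact binomial bound 0.0863%), which is above the control share. The 2 unigenes together had 420, 66, 10 and 16 counts and x-folds of 0.233 (0.176 to 0.301), 0.869 (0.414 to 1.61) and 0.0871 (0.0485 to 0.141). This sum leaves out c9738_g3, which matches ACTC1 at residues 363 to 377 and beyond, and has no gene in the table. It had 21, 17, 0 and 1 counts. Its x-folds were 1.19 (0.591 to 2.38) in treated library 1 and 0.134 (0.00259 to 0.666) in treated library 3. In treated library 1 the last stretch was thus not shown to be lower.

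Smooth muscle actin was scarce, and in treated library 2 it was under the limit of detection. The unigenes that match ACTA2 by nucleotide and in the table, c11062_g1 and c11062_g3, together had 41, 25, 0 and 14 counts, or 6.39, 5.75, 0 and 4.91 CPM. The x-folds of the sum were 0.901 (0.524 to 1.51) in treated library 1 and 0.772 (0.387 to 1.44) in treated library 3, both intervals holding 1. In treated library 2 the control level itself lay under the limit of 17.1 CPM, so no difference was detectable. A further stretch that matches ACTA2 by nucleotide, c11062_g2, is no member because the table gives it to ACTG2, and it had 43, 50, 1 and 32 counts. With it the sum was 84, 75, 1 and 46 counts, and the x-folds turned to 1.31 (0.951 to 1.82) in treated library 1 and 1.23 (0.840 to 1.79) in treated library 3, again with intervals that hold 1. The direction for ACTA2 thus depended on the unigenes summed. The smooth muscle and pericyte markers, 8 of 8 in the table and none at 0, summed to 280 CPM in the control library, then 253, 472 and 323 in treated libraries 1 to 3. ACTG2 among these markers rests on unigenes of which c9738_g2 and c11062_g2 match ACTC1 and ACTA2. In bulk tissue, fewer cells of a type and less RNA per cell cannot be told apart.

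Under the table's names the picture was inverted. ACTA2 then stood for skeletal actin and had x-folds of 0.611, 0.650 and 1.41, and its ratio to ACTA1 was 8.98 (Woolf interval 3.96 to 20.3) and 27.2 (8.66 to 85.4) times the control value in treated libraries 1 and 3. By nucleotide match the ratio of ACTA2 to ACTA1 changed 1.47-fold (0.895 to 2.42) and 0.544-fold (0.297 to 0.998). No value for treated library 2 could be given under either pairing, because 1 of the counts was 0.

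The cytoplasmic actin unigenes were higher in treated libraries 2 and 3. c13011_g1 (table ACTB, given as ACTG1; residues 89 to 356) had 553, 411, 28 and 630 counts, or 86.2, 94.5, 159 and 221 CPM. Its x-fold was 1.10 (0.962 to 1.25) in treated library 1, 1.85 (1.22 to 2.70) in treated library 2 and 2.56 (2.28 to 2.88) in treated library 3. The smaller c4305_g1 had 32, 23, 2 and 30 counts and x-folds of 1.06, 2.26 and 2.09, of which only the last had an interval above 1 (1.24 to 3.58). No limit was passed. Scaled to all counts the order changed, as the x-folds of ACTB in the table were then 0.799, 0.0610 and 1.44.

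A ratio within a library does not depend on that scaling. ACTG1 by nucleotide match was 0.246% of the ACTA1 count in the control library, then 0.440%, 0.707% and 0.442% in treated libraries 1 to 3. All treated libraries lay above the control library, 1.79-fold (Woolf interval 1.58 to 2.03), 2.88-fold (1.99 to 4.16) and 1.80-fold (1.61 to 2.01). The mean log2 change was 1.07 ± 0.39 (SD, n = 3 treated libraries). Because ACTB had no unigene of its own among the members by nucleotide match, the ratio holds ACTG1 counts only.

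The ACTB sequence itself was outside the members. c52411_g1, from the start of the coding sequence (residues 4 to 85), is given to LOC102179831 in the table, the gene that RefSeq (assembly ARS1.2) names ACTB. It had 138, 75, 4 and 125 counts and x-folds of 0.802 (0.597 to 1.07), 1.06 (0.284 to 2.77) and 2.03 (1.59 to 2.61). c13755_g1, which matches ACTB by nucleotide outside the coding sequence and has no gene in the table, had 88, 414, 29 and 227 counts and x-folds of 6.90 (5.50 to 8.84), 11.9 (7.62 to 18.5) and 5.77 (4.52 to 7.51). Another unigene of this kind, c9025_g1, had 36, 41, 0 and 14 counts. Its x-folds were 1.67 (1.05 to 2.70) in treated library 1 and 0.877 (0.436 to 1.66) in treated library 3. A single gene thus gave x-folds around 1 and above 5 in treated libraries 1 and 2, depending on the unigene.

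Among the actinins, ACTN3 and ACTN2 made up nearly all counts. c13052_g1, the full ACTN3 sequence, had 37859, 25382, 338 and 19478 counts, or 5901, 5834, 1923 and 6828 CPM. Treated libraries 1 and 3 lay close to the control library, with x-folds of 0.989 (0.973 to 1.00) and 1.16 (1.14 to 1.18), and treated library 2 lay at 0.326 (0.292 to 0.363). Per kb of sequence, the level of c13052_g1 was 2026 CPM in the control library, where skeletal actin stood at 25598.

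ACTN2, the Z-disc form of all fibres, was split over 3 unigenes that follow each other along the protein. c11967_g3 (residues 26 to 350, table ACTN3) had 9256, 631, 24 and 457 counts. Its x-folds were 0.101 (0.0926 to 0.109), 0.0947 (0.0606 to 0.141) and 0.111 (0.101 to 0.122), and the control library lay far above all treated libraries, which did not differ from each other beyond their intervals. c11967_g1 (residues 344 to 459) had 1898, 214, 5 and 96 counts and x-folds of 0.167, 0.0965 and 0.114. c11967_g2 (residues 453 to 902 and 1944 bases beyond the coding match) had 18368, 14058, 160 and 2843 counts. Its x-folds were 1.13 (1.10 to 1.15), 0.318 (0.270 to 0.371) and 0.348 (0.335 to 0.362), so this end of ACTN2 lay slightly above the control level in treated library 1 and below it in the other two.

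**Figure D2:**
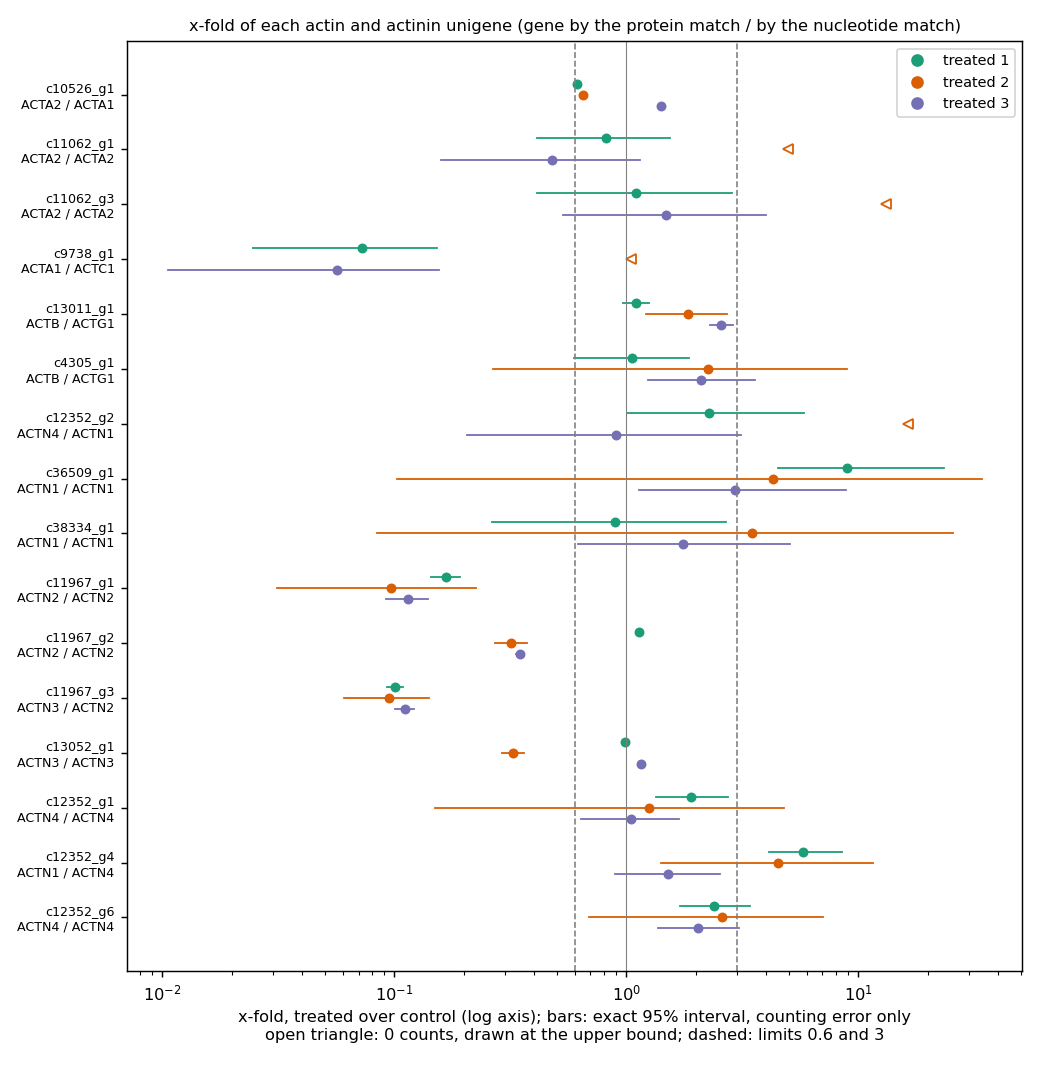
x-fold of the 16 member unigenes in each treated library on a log axis, with exact 95% intervals (counting error only), open triangles for 0 counts at the upper bound of the interval, and dashed lines at 0.6 and 3. The points of c11967_g1, c11967_g3 and c9738_g1 lie left of the lower line wherever counts were above 0, and skeletal actin (c10526_g1) lies between the lines.

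Summed over the 3 unigenes, ACTN2 by nucleotide match had 29522, 14903, 189 and 3396 counts, with x-folds of 0.745 (0.730 to 0.759), 0.234 (0.201 to 0.270) and 0.259 (0.250 to 0.268). In the table, where c11967_g3 counts as ACTN3, the x-folds of ACTN2 were 1.04, 0.297 and 0.326 and those of ACTN3 were 0.814, 0.280 and 0.952. The pairing thus moved the x-fold of ACTN2 in treated library 1 from just above 1 to below 1.

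Summed over all unigenes, ACTN3 took a larger part of the actinin counts in every treated library. By nucleotide match its share was 56.0% (55.7 to 56.4%) in the control library, then 62.4% (61.9 to 62.8%), 62.6% (58.4 to 66.7%) and 84.7% (84.2 to 85.1%) across treated libraries 1 to 3. ACTN2 held 43.7%, 36.6%, 35.0% and 14.8%. The count ratio of ACTN3 to ACTN2 was 1.28 in the control library, then 1.70, 1.79 and 5.74 in treated libraries 1 to 3, a mean log2 change of 1.02 ± 0.99 (SD, n = 3). The spread was about as large as the mean, with treated library 3 apart from the other two. Under the table's names the ratio was 2.33 in the control library and 1.82, 2.19 and 6.78, so the direction in treated libraries 1 and 2 turned with the pairing. Against the 3′ unigene of ACTN2 alone (c13052_g1 over c11967_g2), the ratio was 2.06 for the control library, then 1.81, 2.11 and 6.85 across treated libraries 1 to 3. That is a change of 0.876-fold (Woolf interval 0.853 to 0.900), 1.02-fold (0.848 to 1.24) and 3.32-fold (3.18 to 3.47), so an increase was left in treated library 3 alone.

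The non-muscle actinins were scarce but took a larger part. ACTN4 by nucleotide match (c12352_g1, c12352_g4, c12352_g5 and c12352_g6) had 158, 333, 11 and 107 counts, or 24.6, 76.5, 62.6 and 37.5 CPM, with x-folds of 3.10 (2.56 to 3.78), 2.53 (1.24 to 4.67) and 1.52 (1.18 to 1.96). ACTN1 (c12352_g2, c18160_g1, c2056_g1, c36509_g1 and c38334_g1) had 34, 78, 2 and 25 counts, with x-folds of 3.34 (2.23 to 5.22), 2.13 (0.250 to 8.38) and 1.64 (0.946 to 2.85). In treated library 1 the ACTN1 sum rested mostly on c36509_g1, with 8 control counts against 52 and an x-fold of 8.95 (4.52 to 23.4). There c12352_g2 lay at 2.28 (1.01 to 5.82), while c38334_g1 (0.892) and c2056_g1 (0.763) did not rise. Both genes had their highest CPM in treated library 1. Under the table's names, ACTN1 had 58, 217, 7 and 46 counts and x-folds of 5.47 (4.11 to 7.51), 4.37 (1.70 to 9.67) and 1.78 (1.18 to 2.67), most of them from c12352_g4, and ACTN4 had x-folds of 2.19, 1.71 and 1.47. Scaled to all counts, the x-folds in treated library 2 were 0.153 for ACTN1 and 0.0608 for ACTN4 of the table.

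Within a library, ACTN1 and ACTN4 together were 0.285% of the ACTN2 and ACTN3 counts in the control library, then 1.02%, 2.47% and 0.577% in treated libraries 1 to 3. These are changes of 3.58-fold (Woolf interval 3.02 to 4.25), 8.66-fold (4.90 to 15.3) and 2.03-fold (1.62 to 2.53), all upward, with a mean log2 change of 1.99 ± 1.06 (SD, n = 3). The names mattered little here, as the table gave 3.67, 8.94 and 2.06. The unigenes mattered more. Within ACTN4 the x-folds were 5.79, 4.51 and 1.51 for c12352_g4 (residues 739 to 902). They were 2.38, 2.59 and 2.04 for c12352_g6, and 1.90, 1.26 and 1.05 for c12352_g1 (residues 84 to 279). The denominator holds the ACTN2 unigenes c11967_g1 and c11967_g3, which were far lower in all treated libraries. The ratio was not redone without them. Treated library 2 rests on 13 counts of the non-muscle forms.

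**Figure D3:**
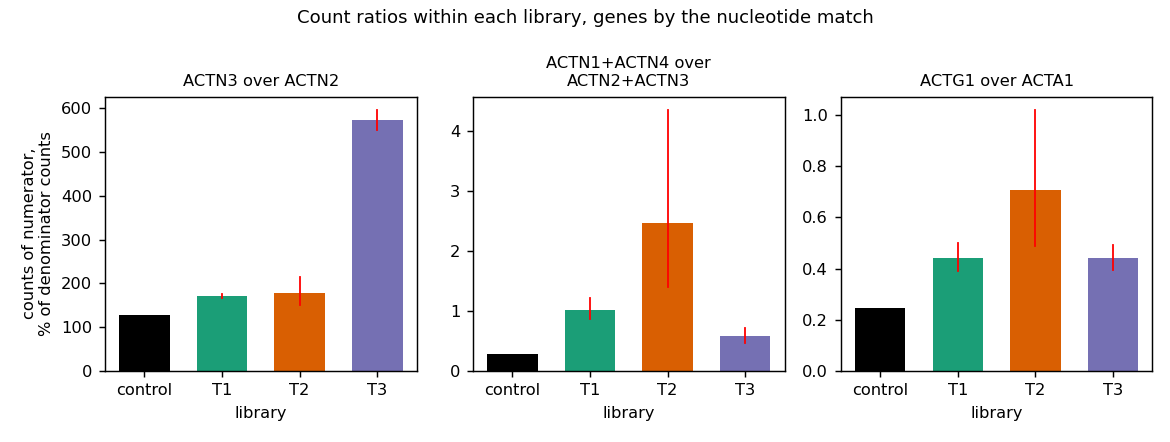
Count ratios within each library (T1 to T3 are treated libraries 1 to 3), as the percent of the denominator counts on axes that start at 0, for genes by nucleotide match. Red lines are 95% Woolf intervals of the change from the control library, placed at the control value times the bounds. The control bar is the lowest in each panel, at 128%, 0.285% and 0.246%.

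Levels of markers of other cells differed between the libraries as well. Fibroblast markers (4 of 6 in the table) summed to 108 CPM in the control library, then 154, 1690 and 256 in treated libraries 1 to 3, with PDGFRA at 0 counts in all treated libraries. White blood cell markers (4 of 6) summed to 17.1, 128, 324 and 39.3 CPM, mostly CD74, while CD14 had 0 counts in all treated libraries and PTPRC at most 1. Endothelial markers (5 of 6, none at 0) summed to 293, 185, 637 and 377, and none of 3 red blood cell markers was in the table. Their part in the actin and actinin ratios was not tested.

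The part of a transcript that was counted also moved with the groups. For 7 genes by nucleotide match, a unigene nearer the 5′ end was set against one taken as nearer the 3′ end. For 6 of these genes the 5′ over 3′ count ratio was by its value lower in each treated library than in the control library. Only for ACTN2 and ACTB did the interval of the change lie below 1 in every treated library. For c11967_g3 over c11967_g2 of ACTN2 it was 0.504 in the control library, then 0.0449, 0.150 and 0.161 in treated libraries 1 to 3, and c11967_g1 over c11967_g2 gave 0.103, 0.0152, 0.0313 and 0.0338. For ACTB (c52411_g1 over c13755_g1, the latter outside the coding sequence) it was 1.57 and then 0.181, 0.138 and 0.551. c13755_g1 could not be placed along the protein, so its place at the 3′ end is assumed. The ACTB unigene c9025_g1 could not be placed either. In treated library 3 c52411_g1 lay above the control library (x-fold 2.03) and c9025_g1 did not (0.877), so the ACTB ratio depended on the unigene chosen. For ACTN4 (c12352_g1 over c12352_g4) it was 1.45 and then 0.472, 0.400 and 1.00, and the intervals of the change held 1 in treated libraries 2 and 3. For ACTC1 (c9738_g1 over c9738_g2) it was 0.448 and then 0.10, 0 and 0.231, and the interval held 1 in treated library 3 (0.144 to 1.84). For ACTA2 (c11062_g1 over c11062_g2) it was 0.674 and then 0.320, 0 and 0.188, and for ACTN1 (c2056_g1 over c36509_g1) it was 0.750 and then 0.0577, 0 and 0.182, again with an interval that held 1 in treated library 3 (0.0385 to 1.53). Each 0 is from treated library 2, where the 3′ unigene had at most 10 counts and no interval of the change could be given. For ACTA2 and ACTN1 that unigene had 1 count there, so the 0 does not show a lower ratio. ACTG1 (c4305_g1 over c13011_g1) was the exception, with 0.0579, 0.0560, 0.0714 and 0.0476. These pairs were chosen after the positions of the unigenes were seen, and other genes were not examined in this way. The x-fold of a gene split over unigenes therefore depended on which unigene carried its counts. The part of this shift in the results above was not tested.

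**Figure D4:**
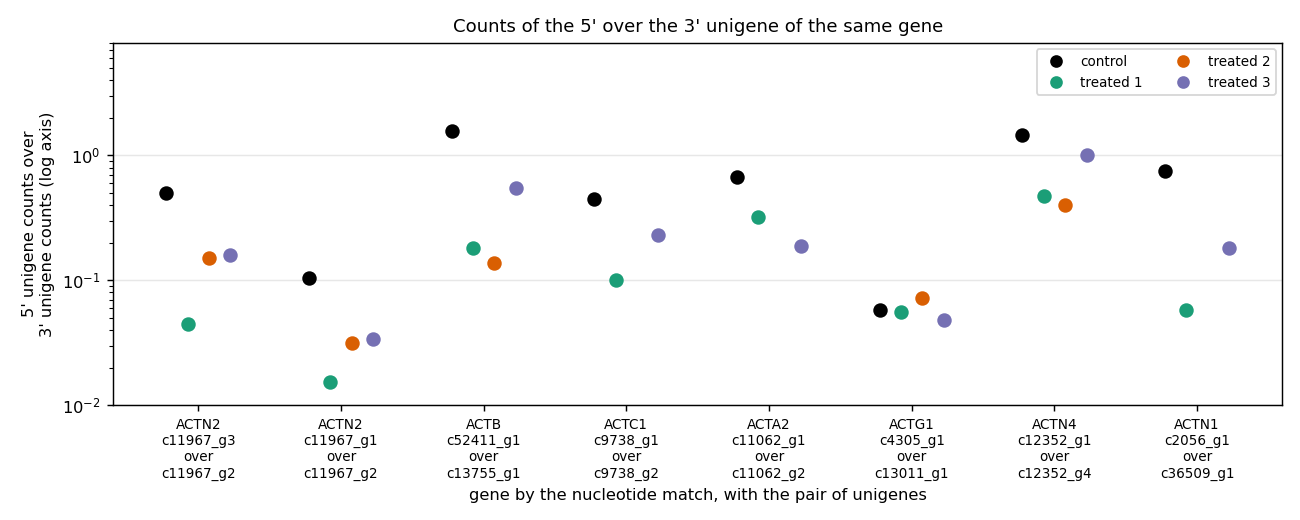
Counts of the 5′ unigene over counts of the 3′ unigene of the same gene in each library, on a log axis. The place of c13755_g1 at the 3′ end of ACTB is assumed. The control point is the highest of every pair but the ACTG1 pair, for example 0.504 against 0.0449 to 0.161 for c11967_g3 over c11967_g2, and ratios of 0 in treated library 2 (ACTC1, ACTA2 and ACTN1) are not drawn.

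Counted over the table's gene names, all 7 of which passed the minimum mean of 1 CPM, 1 gene lay below 0.6 and 1 above 3 in treated library 1, where 39.1% and 5.39% of goat genes did. In treated library 2, 3 lay below and 1 above (53.5% and 12.3% of goat genes), and in treated library 3, 2 lay below and 0 above (38.5% and 3.16%). The shares below the limit, 14.3%, 42.9% and 28.6%, were no higher than those of all goat genes. Median x-folds of the 7 genes were 1.04, 0.650 and 1.41. By nucleotide match, with 8 genes, the numbers below and above were 1 and 2, 4 and 0, and 2 and 0. In treated library 2, some of the genes below had 0 counts and an interval that reached above 1. These were ACTA1 by the table's names (up to 1.05), and ACTA2 (up to 3.44) and ACTC1 (up to 1.05) by nucleotide match. Their place below the limit there is not shown.

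Counted over single unigenes, 16 of the 20 members passed the minimum, and 4 did not (c12352_g5, c18160_g1, c2056_g1 and c25498_g1). In treated library 1, 3 lay below 0.6 and 2 above 3, against 32.0% and 15.2% of all unigenes. In treated library 2, 8 lay below and 3 above (49.9% and 25.2%), but 4 of those below had 0 counts there and an interval that reached above 1. Of the 3 above, only 1 had an interval over 1, and c36509_g1 and c38334_g1 rested on 1 count each. In treated library 3, 5 lay below and 0 above (34.1% and 7.42%), and 4 of the 5 had an interval under 1. By x-fold alone 3 unigenes lay below the limit in all treated libraries, where 14.7% of all unigenes did. These were c11967_g1 and c11967_g3, with counts in every library, and c9738_g1, whose 0 counts in treated library 2 leave its place there not shown.

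A test of the 3 treated libraries against the control library was made with edgeR's quasi-likelihood test, in which the lone control library is assumed to vary like the treated ones. These treated libraries are probably from different days, so their spread is not that of replicates of a single day. The test called 136 of 13459 goat genes and other unigenes at an adjusted p under 0.05 (1.01%). Of the 7 member genes, ACTA1 of the table (cardiac actin c9738_g1) was called, with a log2 fold of -3.77 and an edgeR adjusted p of 0.0295. Its level lay below the control library beyond counting error in treated libraries 1 and 3. Here and with every unigene tested singly, it passed the filter on low counts only through the control library. It had 130 counts there, against 6, 0 and 3 in treated libraries 1 to 3. The call is therefore no separate support for a lower level. The call held without mitochondrial, ribosomal and bacterial unigenes (log2 fold -3.91, edgeR adjusted p = 0.0154). It was lost at a like log2 fold without treated library 1 (-3.95, adjusted p = 0.153), 2 (-3.80, 0.142) or 3 (-3.82, 0.169), and when c9738_g2 and the other unigenes that match ACTC1 were added (log2 fold -1.41, adjusted p = 0.531). It was also lost without the filter on low counts (-4.05, adjusted p = 0.0624) and without TMM factors (-5.19, 1.00), and DESeq2 gave it no adjusted p. For the other members the log2 folds and edgeR adjusted p-values were 0.13 and 0.988 for ACTA2 of the table (skeletal actin), 1.16 and 0.685 for ACTB, 2.20 and 0.351 for ACTN1, -0.58 and 0.891 for ACTN2, -0.25 and 0.969 for ACTN3, and 1.13 and 0.674 for ACTN4. With every unigene tested singly, 211 of 14441 were called (1.46%), among them c9738_g1 (log2 fold -3.76, adjusted p = 0.0304) and c11967_g3 of ACTN2 (-3.00, 0.0479), while c11967_g1 (-2.66, 0.0567) was not.

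Partners of actin and alpha-actinin were followed from lists under the table's names. Of 33 thin filament proteins and regulators, 29 were in the table and 27 passed the minimum. Numbers below 0.6 and above 3 were 3 and 1, 9 and 3, and 8 and 3 in treated libraries 1 to 3, where the shares of all goat genes were 39.1% and 5.39%, 53.5% and 12.3%, and 38.5% and 3.16%. The medians of 1.08, 0.819 and 1.15 lay above those of all goat genes in each library. The lowest were LMOD2, which nucleates actin filaments in striated muscle (0.662, 0.109 and 0.241), CFL2, the muscle cofilin that severs filaments (0.179, 0.441 and 0.247), and WDR1, which assists cofilin (0.322, 0.358 and 0.576). The highest were TPM4, a cytoskeletal tropomyosin (17.1, 14.8 and 5.73), TMSB10, which binds actin monomers (2.96, 13.4 and 5.66), and TNNT3, the fast troponin T (2.60, 1.61 and 3.12). TPM4 had 56, 658, 23 and 144 counts and TMSB10 had 472, 949, 174 and 1189, so both were above the control library in all treated libraries in CPM, while scaled to all counts their x-folds in treated library 2 were 0.485 and 0.430, and that of TNNT3 was 0.0512.

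All 23 Z-disc and adhesion partners of alpha-actinin were in the table and passed the minimum. Below 0.6 were 8, 18 and 13 of them in treated libraries 1 to 3, which is 34.8%, 78.3% and 56.5% against 39.1%, 53.5% and 38.5% of all goat genes. In none of the libraries did any lie above 3, and the medians were 0.871, 0.205 and 0.484. The lowest were CSRP3, a muscle LIM protein of the Z-disc (0.549, 0.0449 and 0.0819), XIRP2, an actin-binding Xin-repeat protein (0.278, 0.0623 and 0.121), and NRAP, which links actin to the ends of myofibrils (0.50, 0.0668 and 0.196). XIRP2 went from 33422 control counts to 6292, 57 and 1796. The highest were ZYX, zyxin of adhesions (1.36, 2.14 and 1.64), PDLIM7, a PDZ and LIM protein that binds actin-associated proteins (1.46, 0.752 and 2.68), and TCAP, the titin cap (1.37, 0.171 and 1.05). The median of these partners lay above that of all goat genes in treated library 1 and below it in treated libraries 2 and 3.

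Of 14 genes of actin synthesis and folding, 11 were in the table and passed. Below 0.6 were 3, 6 and 4 in treated libraries 1 to 3 (27.3%, 54.5% and 36.4%, against 39.1%, 53.5% and 38.5% of all goat genes), and 0, 1 and 0 lay above 3. The medians of 0.689, 0.494 and 0.607 compare with 0.740, 0.530 and 0.729 over all goat genes, so the list lay near the background. SRF, the serum response factor that drives actin transcription, was lowest, with 830, 72, 0 and 221 counts and an x-fold of 0.129 in treated library 1 and of 0.599 in treated library 3. In treated library 2 SRF had 0 counts, where 3 counts are 17.1 CPM against 129 in the control library. CCT4 (0.613, 0.357 and 0.537) and CCT6A (0.557, 0.494 and 0.611), subunits of the chaperonin that folds actin, came next. The highest were MKL2, a cofactor of SRF (1.30, 3.49 and 1.45), CCT8 (1.36, 0.822 and 0.743) and CCT7 (0.710, 0.713 and 0.751).

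**Figure D5:**
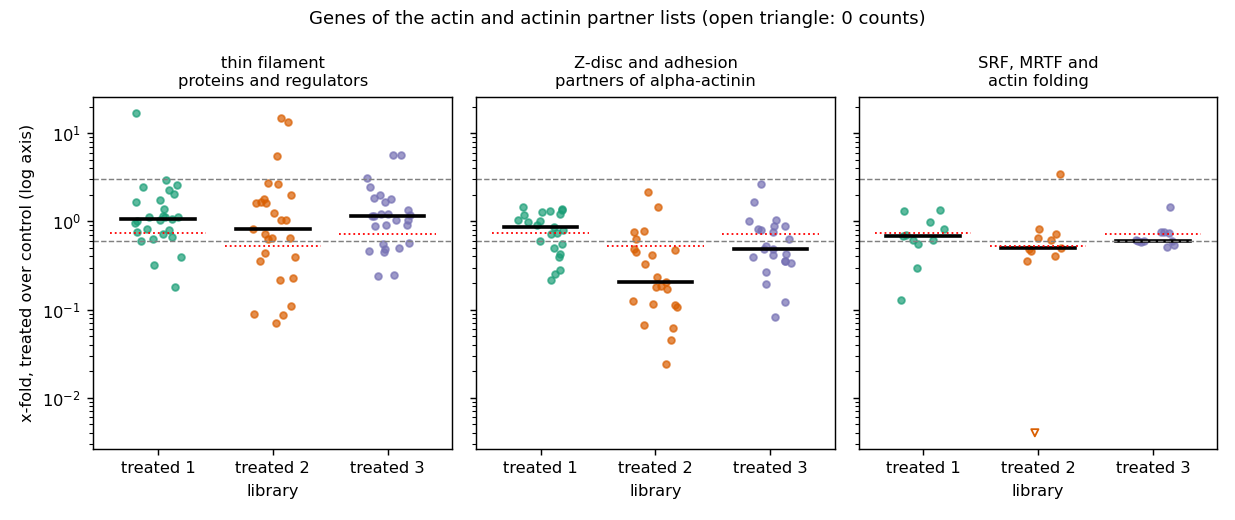
x-folds of the partner genes in treated libraries 1 to 3 on a log axis, 1 point a gene, with the list's median as a black bar, the median of all goat genes as a red dotted line and the limits 0.6 and 3 dashed. The Z-disc list has its medians at 0.871, 0.205 and 0.484 and no point above 3. The open triangle is SRF, at 0 counts in treated library 2 and drawn at the bottom of the axis.

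The goat genes whose x-folds were most like those of a member were found by the Euclidean distance of the 3 log2 x-folds, among 3465 genes with a mean of at least 20 CPM. For ACTB of the table they were LGALS1 (1.31, 1.94 and 2.50, distance 0.26), FAM195A (0.977, 1.71 and 2.21, distance 0.29) and SEPT9 (1.36, 1.92 and 2.53, distance 0.31). For ACTA1 of the table they were MYOM3, FBXO32 and EPPK1, at distances of 2.00 to 2.65, which is not close, and the distance holds an x-fold set by 0 counts. For skeletal actin (ACTA2 of the table), added after the names had been checked, they were HOXC10, SCN4B and CDC34 at 0.24 to 0.27.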

How the data were processed

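RNA-seq of 1 control and 3 treated libraries was used. Per the paper and the labels, RNA was sequenced on an Illumina instrument and read quality was checked with FastQC 0.10.1, and the assembler and counter are not given in the sources used here. The authors deposited expected counts (estimated counts, all whole) and FPKM per unigene and transcript, and a table that pairs unigenes with goat proteins and gives the percent identity. Expected counts were the main values, and FPKM served as an alternative. Levels were counts per 1000000 remaining counts (CPM), for which 39 mitochondrial, 41 ribosomal and 174 bacterial unigenes, recognised by their deposited nucleotide match, were left out. The limits 3 and 0.6 follow the study's methods. Low-count features below a mean of 1 CPM were left out. Member genes by nucleotide match were read from the deposited description of that match. Positions along the protein came from blastx (BLAST+ 2.17.0) to the deposited translations of c10526_g1 and c13052_g1, and printed sequences are the deposited ones, on the coding strand. Of the proteins behind the member names, ACTA2 alone was found in the RefSeq table of ARS1.2, from which names only were taken.

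The test was edgeR 4.0.16 (R 4.3.3) with TMM and Benjamini-Hochberg adjustment. It was also run on simulated data. Those lacked the differences in composition that these libraries show, so that run lends the calls no support. DESeq2 1.42.0 was an alternative. Ratio intervals are exact (conditional binomial) for x-folds and Woolf for ratios of ratios, and PCR reads without molecular identifiers are not independent molecules. The limit for 0 counts is 3 counts. Where nothing says that libraries came from separate animals, p-values measure only the spread between them. For the treated libraries this spread probably includes differences of sampling day. Named genes were the members, the 3 highest and 3 lowest of each partner list by median x-fold at a mean of at least 20 CPM, and the 3 nearest genes for ACTA1 and ACTB. The members and lists were chosen with earlier results of these data known. Python 3.11.15, pandas 2.3.3, numpy 2.4.6, scipy 1.17.1, Biopython 1.88 and matplotlib 3.10.9 were used. Alternatives were other scalings, pseudocounts, filters and limits, FPKM, the transcript table, single or close-matching unigenes, pairing by nucleotide match (chosen after seeing the data) and leaving out each treated library. Some sequences are not reported here.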

Additional observations from a re-analysis of the deposited data

How the results depend on the processing

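Scaled to all counts, member genes past the limits were 4 and 7 in treated libraries 1 and 2 instead of 2 and 4, and 2 instead of 1 lay below 0.6 in all treated libraries. With identities of at least 90% only, 1 lay past the limits in treated library 1. Without a treated library, the number below 0.6 in all others was 1 to 2, the 2 without treated library 1, where ACTN2 joined. The mean log2 change of ACTN3 over ACTN2, 0.37 under the table's names, was -0.22 to 0.73 on leaving out a treated library, the negative value without treated library 3. Pairing by nucleotide match, chosen after seeing the data, turned ACTA2 over ACTA1 from 3.97 to -0.16, brought ACTB and ACTG1 over ACTA1 from 4.81 to 1.07, and turned the edgeR log2 fold under the name ACTA1 from -3.77 to 0.13, since the names then stand for other unigenes. Setting ACTN3 against c11967_g2 alone gave a mean log2 change of 0.53, and adding c11062_g2 to ACTA2 gave a mean log2 x-fold of -0.17, both also chosen after seeing the data. The edgeR calls were 136 with 1 member. They were 0 without TMM factors (37 at an unadjusted p under 0.05, 0 members), 11 with DESeq2 (0 members), 35 without the filter on low counts (0 members), 211 for single unigenes (2 members), and 131 with nucleotide pairing (0 members). Leaving out a treated library gave 2 to 247 calls and 0 members, the 2 without treated library 2. In each of these settings but the first, 1 or 2 members had an unadjusted p under 0.05, or 5 among single unigenes. The causes were not tested. Other pseudocounts, filters, limits, FPKM, the transcript table and the other scalings left the counts of member genes within 1.5 times. The pairing by RefSeq proteins was not run, as no RefSeq protein sequences were used here. No paired analysis was possible because there was only 1 control library. Depth limits treated library 2, where 1 count is 5.69 CPM.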

Other observations

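Unigenes of the same families outside the list were 12 in number by nucleotide match. Among them, c10836_g1 matches ACTN4 outside the coding part that could be placed and has no gene in the table. It had 39, 135, 6 and 31 counts, with x-folds of 5.04 (3.55 to 7.49), 5.54 (1.94 to 13.4) and 1.78 (1.08 to 2.94). c37862_g1 holds the last residues of a cytoplasmic actin and could not be given to ACTB or ACTG1, as the table names LOC102179831 and the nucleotide description names no isoform. It had 322, 1009, 81 and 580 counts, with x-folds of 4.61 (4.07 to 5.26), 9.17 (7.11 to 11.7) and 4.05 (3.53 to 4.66). c11062_g2, given to ACTG2 in the table and matching ACTA2 by nucleotide, had 43, 50, 1 and 32 counts, with x-folds of 1.70 (1.12 to 2.64) in treated library 1 and 1.66 (1.03 to 2.71) in treated library 3.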
